A study of Rattus norvegicus with 6 samples.

Results

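The glial cell line-derived neurotrophic factor (GDNF) family was examined through 7 genes, the ligand genes Gdnf, Artn and Nrtn, the co-receptor genes Gfra1, Gfra2 and Gfra3, and the signalling receptor gene Ret. They were taken by symbol from 29468 gene symbols listed in the 6 samples, and all 7 were listed. The samples were 3 preparations of Schwann cell precursors (SCPs) and 3 of repair Schwann cells (RSCs), all from LEWIS rats labelled as wild type. The study's methods state that grafted cells came from LEWIS rats carrying a ubiquitous RFP transgene, and whether the sequenced cells carried it is not resolved by these sources. SCPs came from untreated embryos at embryonic day 14, from sciatic nerve and brachial plexus on both sides. RSCs came from rats aged 10 weeks, from the sciatic nerve distal to a transection, taken 1 week after the nerve was cut. Age, injury, source nerve and strength of digestion all differed between the groups and cannot be told apart. Cells of both groups were dissociated with enzymes and kept apart from cells that attached to the flask. The labels do not say how many animals went into a preparation, so the spread between the 3 preparations of a group is the only error available.

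GDNF, artemin and neurturin are secreted growth factors of the TGF-beta superfamily that support sensory, autonomic and motor neurons. Each binds a co-receptor held on the cell surface by a lipid anchor, GDNF preferring GFRα1, neurturin GFRα2 and artemin GFRα3, and the complex then activates the receptor tyrosine kinase RET. Schwann cells of injured nerves are known as a source of GDNF and artemin and are known to carry GFRα1, which can also act without RET through the adhesion molecule NCAM. Expression was measured as FPKM, a fragment count divided by transcript length and by the mapped fragments of the sample, with all named transcripts of a symbol summed. Since FPKM is scaled by length, levels of different genes can be set side by side.

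The upstream sequences are shown for Gfra1 and Gfra3, the co-receptor genes with opposite differences, and for Gdnf, the ligand gene for which the family is named. Each is the 250 bases before the RefSeq start of the gene on the GRCr8 build, read 5′ to 3′ on the strand of the gene, while expression was measured on rn6. Capitals mark matches on either strand to a GC box (GGGCGG) or a TATA box (TATAAA).
Gfra1 (chr1:267555812-267556061, minus strand): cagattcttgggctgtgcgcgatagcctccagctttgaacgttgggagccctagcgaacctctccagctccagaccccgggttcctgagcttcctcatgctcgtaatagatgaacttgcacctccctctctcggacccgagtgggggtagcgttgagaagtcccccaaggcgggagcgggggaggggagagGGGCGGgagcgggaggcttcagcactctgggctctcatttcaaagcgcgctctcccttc
Gfra3 (chr18:26600226-26600475, minus strand): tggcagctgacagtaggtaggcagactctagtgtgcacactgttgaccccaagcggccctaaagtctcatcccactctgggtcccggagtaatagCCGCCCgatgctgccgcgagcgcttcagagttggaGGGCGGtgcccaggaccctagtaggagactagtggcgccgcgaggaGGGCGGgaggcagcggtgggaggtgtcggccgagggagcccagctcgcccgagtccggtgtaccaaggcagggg
Gdnf (chr2:58621077-58621326, plus strand): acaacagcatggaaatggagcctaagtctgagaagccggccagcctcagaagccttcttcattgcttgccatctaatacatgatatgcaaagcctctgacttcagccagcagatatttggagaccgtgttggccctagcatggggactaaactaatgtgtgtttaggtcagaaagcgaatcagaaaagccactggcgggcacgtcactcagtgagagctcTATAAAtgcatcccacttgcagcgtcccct

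RefSeq upstream sequences were found for 6 of the 7 genes, all but Gfra2. The Gfra1 and Gfra3 windows held 62.0% and 66.0% G and C, against 49.6% for Gdnf and a median of 51.2% over 33469 windows of the same length. GC boxes were found once in the Gfra1 window and 3 times in the Gfra3 window. The Artn window, not shown, was 70.8% G and C and also held the GC box, so 3 of the 6 windows had it. A GC box was present in 30.5% of all windows. The TATA box of Gdnf lay 30 to 25 bases before the start, and 12.9% of all windows held this motif. None of the 6 windows held the AP-1 motif TGANTCA, the TEAD motif GGAATG or the SOX motif ACAAAG, which were present in 6.34%, 12.1% and 16.3% of all windows. These are matches of letters within the windows only.

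The comparison asked how the ligand and receptor genes differ between Schwann cells of the developing nerve and those of the injured adult nerve. Gfra1 and Artn were higher in RSCs, Gfra3 was higher in SCPs, and Gdnf, Nrtn and Gfra2 did not pass an unadjusted p under 0.01. Ret was near the lower end of the scale in both groups. The test was limma on log2(FPKM + 1), RSC minus SCP, over the 13003 genes averaging 1 FPKM or more across the 6 samples. This scale understates changes of low genes. Of the 6 members in this fit 3 passed, beside 40.5% of all genes tested. RSCs had the higher level for 2 of them, beside 18.1% of all genes, and SCPs for 1, beside 22.4%. All 3 differed over 4-fold (log2 fold change over 2), as did 11.6% of all genes tested, 7.81% toward RSCs and 3.78% toward SCPs. With unnamed transcripts added, Artn at 1.92 was no longer over 4-fold. Artn and Gfra3 passed the filter through 1 group alone, Artn through RSCs and Gfra3 through SCPs. In 5 of the 6 members the groups did not overlap, as in 58.6% of all genes tested. The median log2 fold change of all tested genes was -0.17. Since cells were lysed in bulk, fewer cells expressing a gene and less RNA per cell cannot be told apart.

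**Figure D1:**
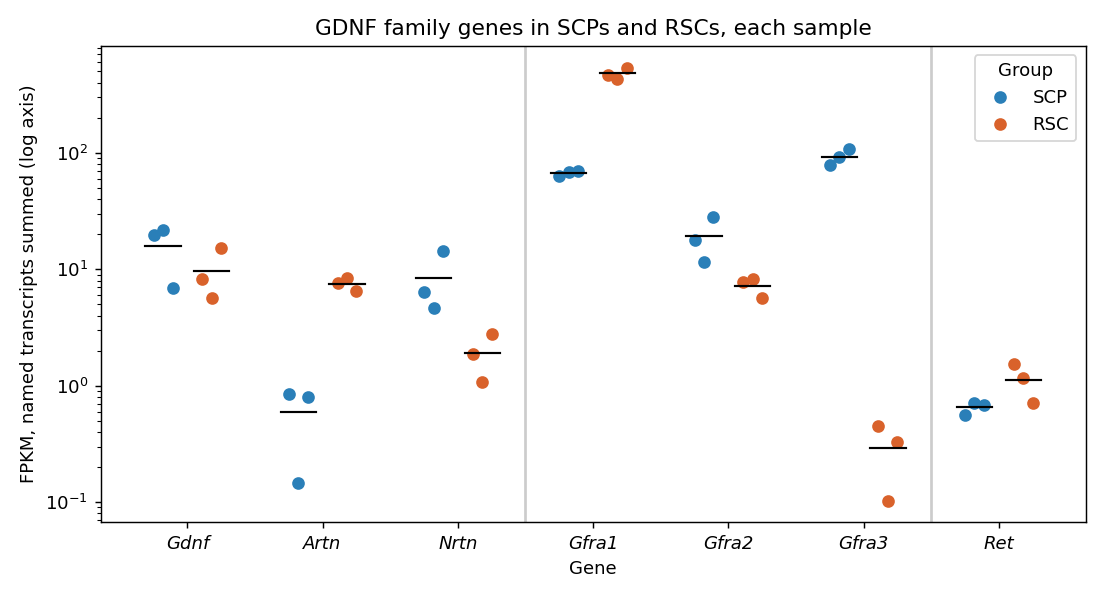
FPKM of each of the 7 genes (log axis) in the 3 SCP and 3 RSC samples, with points for samples and short lines for group means. Gfra1 lies between 432 and 539 FPKM in RSCs against 62.6 to 70.3 in SCPs, and Gfra3 between 0.103 and 0.452 in RSCs against 78.3 to 109 in SCPs.

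Among the ligands, Gdnf (chromosome 2 from 56887546 to 56912964 of rn6), which encodes the founding member of the family, was at 19.5, 21.5 and 6.90 FPKM in SCP replicates 1, 2 and 3. In RSC replicates 1, 2 and 3 it was at 8.18, 5.61 and 15.2 FPKM. The groups overlapped, since SCP replicate 3 lay below RSC replicates 1 and 3. The log2 fold change was -0.63 with a 95% interval from -1.90 to 0.64 (standard error 0.52, adjusted p = 0.361, limma). Without SCP replicate 3 it was -1.11, which did not pass the threshold either.

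Cufflinks divided Gdnf among 5 listed transcripts, of which 3 were above 0 in any sample, and the division changed from sample to sample. In SCP replicate 1 all of it was placed in XM_006232010.2, at 19.5 FPKM with a Cufflinks 95% interval from 17.1 to 21.8. In SCP replicate 2 most was placed in XM_006232011.2, at 16.6 FPKM. The RSC samples were divided as unevenly, with XM_006232010.2 above 0 only in replicate 2, at 5.61 FPKM. The transcript NM_019139.1, of only 700 bases in the tables, was listed at 0 in every sample and marked by Cufflinks as having low data.

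Artn (chromosome 5 from 136759717 to 136764995), which encodes artemin, was at 0.840, 0.147 and 0.801 FPKM in the SCP samples. The RSC samples were at 7.63, 8.41 and 6.55 FPKM, and each of them was above every SCP sample. Its log2 fold change was 2.44 (standard error 0.26, 95% interval 1.80 to 3.09, adjusted p = 7.97e-04, limma), with group means of 0.596 ± 0.389 and 7.53 ± 0.933 FPKM (SD, n = 3 each), a ratio of 12.6. With a pseudocount of 0.1 the log2 fold change was 3.68. In RSCs most of it was placed in NM_053397.1, at 5.99, 7.0 and 5.05 FPKM, and the rest in the longer XM_006238684.2, at 1.64, 1.41 and 1.51 FPKM.

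Nrtn (chromosome 9 from 10300244 to 10306599), which encodes neurturin, was at 6.37, 4.63 and 14.2 FPKM in the SCP samples. It was at 1.88, 1.08 and 2.76 FPKM in the RSC samples, each below every SCP sample. The log2 fold change was -1.60 (standard error 0.44, 95% interval -2.68 to -0.53), and its unadjusted p of 0.0108 missed the threshold (adjusted p = 0.0262, limma). SCP replicate 3 held the highest value of the group, and Cufflinks placed 7.96 FPKM of it in NM_053399.1, a transcript it marked as having low data in all 6 samples. Without SCP replicate 2, the lowest of the SCP samples, the log2 fold change was -1.91 and passed the threshold.

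Of the co-receptors, Gfra1 (chromosome 1 from 279205514 to 279572976) was the most abundant member in RSCs. It encodes the preferred co-receptor of GDNF and was at 62.6, 67.9 and 70.3 FPKM in the SCP samples. RSC replicates 1, 2 and 3 stood at 469, 432 and 539 FPKM, all far above the SCP samples. Group means were 66.9 ± 3.95 and 480.2 ± 54.3 FPKM (SD, n = 3 each), a ratio of 7.17. This gave a log2 fold change of 2.82 (standard error 0.10, 95% interval 2.57 to 3.07, adjusted p = 2.5e-05, limma). Among the tested genes of a sample, Gfra1 ranked between the 90.5 and 92.1 percentile in SCPs and between the 98.6 and 98.8 percentile in RSCs. All of its named FPKM was placed in 1 of 4 listed transcripts, NM_012959.1, which Cufflinks marked as having low data in all 6 samples.

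Gfra3 (chromosome 18 from 27491860 to 27520133), the gene of the artemin co-receptor, showed the opposite pattern. The SCP samples were at 78.3, 91.2 and 109 FPKM, above Gfra1 in each of them when named transcripts alone were counted. With unnamed transcripts added, as described further on, Gfra1 was above Gfra3 in each of them. The RSC samples were at 0.452, 0.103 and 0.328 FPKM. Within single samples, the lowest Cufflinks 95% bound in SCPs was 72.2 FPKM and the highest in RSCs 0.819 FPKM. The log2 fold change was -6.17 (standard error 0.19, 95% interval -6.63 to -5.71, adjusted p = 1.8e-05, limma), and the SCP mean of 92.7 ± 15.2 FPKM was 315 times the RSC mean of 0.294 ± 0.177 FPKM (SD, n = 3 each). With a pseudocount of 0.1 the log2 fold change was -7.98. Cufflinks marked the transcript as having low data in SCP replicate 3 alone.

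Gfra2 (chromosome 15 from 52557607 to 52648973), the gene of the neurturin co-receptor, was at 17.9, 11.5 and 28.1 FPKM in SCPs against 7.72, 8.24 and 5.70 FPKM in the RSC samples. The groups did not overlap. The log2 fold change of -1.22 (standard error 0.33, 95% interval -2.04 to -0.41) had an unadjusted p of 0.0106 (adjusted p = 0.0259, limma), just short of the threshold. Adding unnamed transcripts, as described further on, took Gfra2 past it.

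Ret (chromosome 4 from 150202174 to 150244380), the gene of the receptor tyrosine kinase shared by the family, was at 0.559, 0.713 and 0.681 FPKM in the SCP samples. In RSCs it was at 1.52, 1.16 and 0.709 FPKM, and RSC replicate 3 lay below SCP replicate 2, so the groups overlapped. With a mean under 1 FPKM it was outside the fit across genes. The difference of mean log2(FPKM + 1) was 0.35, with an exact two-sided permutation p of 0.2, where 3 samples against 3 cannot give less than 0.1. In every sample the summed co-receptor FPKM was at least 239 times that of Ret, from 239 to 304 times in SCPs and 314 to 769 times in RSCs. Both listed Ret transcripts, NM_012643.2 and NM_001110099.1, were above 0 in all 6 samples, at 0.152 to 0.998 FPKM.

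**Figure D2:**
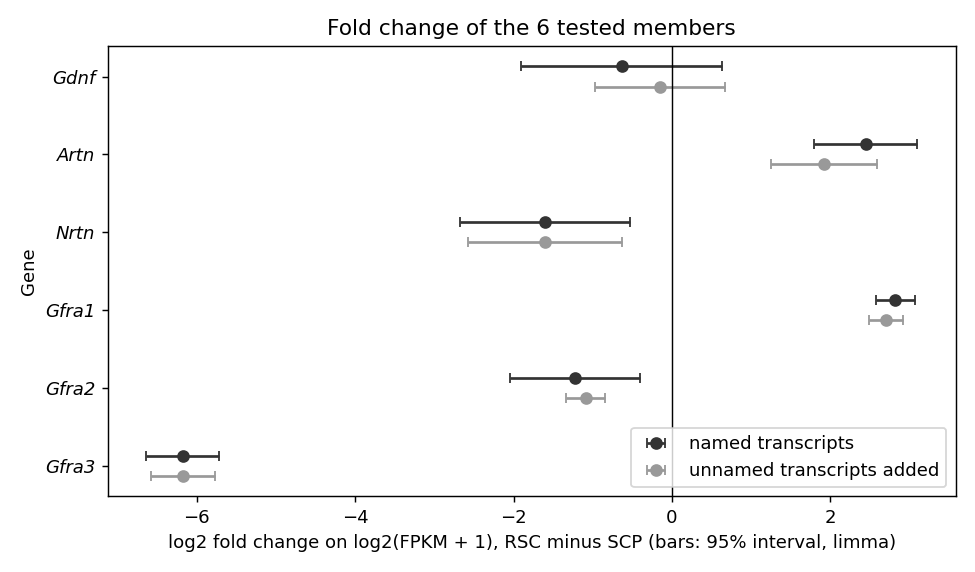
Log2 fold change, RSC minus SCP, of the 6 members in the fit, with 95% intervals from limma as bars, for named transcripts (dark) and with unnamed transcripts added (grey). Gfra1 and Artn lie above 0 and Gfra3 lies at -6.17, and the interval of Gdnf includes 0 in both summaries.

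In order of level by named transcripts alone, Gfra3 came first in SCPs and Gfra1 followed, with no overlap between their samples. With unnamed transcripts added the order of these genes turned, to a mean of 109 FPKM for Gfra1 and 92.7 FPKM for Gfra3, and their samples overlapped. Then came Gfra2, Gdnf and Nrtn, where each overlapped the next in their sample ranges by either summary. Ret and Artn stood last and overlapped by named transcripts. With unnamed transcripts added, Artn at 0.801 to 2.42 FPKM lay above Ret at 0.559 to 0.713 FPKM. In RSCs, Gfra1 was alone at the top. By named transcripts Gdnf, Artn and Gfra2 overlapped between 5.61 and 15.2 FPKM, Nrtn and Ret overlapped below them, and Gfra3 was lowest. With unnamed transcripts added, Gdnf at 18.1 to 24.6 FPKM, Gfra2 at 11.3 to 13.7 FPKM and Artn at 6.55 to 8.41 FPKM no longer overlapped in RSCs.

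The make-up of the co-receptors was compared within samples, which does not depend on scaling between samples. Gfra3 made up 51.7% ± 2.16 of the summed Gfra1, Gfra2 and Gfra3 FPKM in SCPs and 0.0594% ± 0.0356 in RSCs (SD, n = 3 each). Gfra1 made up 37.7% ± 3.27 in SCPs and 98.4% ± 0.412 in RSCs, and Gfra2 10.5% ± 3.49 and 1.51% ± 0.422. With unnamed transcripts added, Gfra1 in place of Gfra3 had the largest share in SCPs, at 47.6% ± 1.84 against 40.1% ± 2.99, while in RSCs Gfra1 was at 98.2% ± 0.316. The groups did not overlap for any of the 3 shares, and each difference had an exact two-sided permutation p of 0.1, the smallest that this design allows. The summed co-receptor FPKM was 179 ± 25.1 in SCPs and 488 ± 53.0 in RSCs, a ratio of 2.73. Of the summed ligand FPKM, Artn made up 0.560% to 3.66% in SCPs and 26.8% to 55.7% in RSCs, while the Gdnf share overlapped between the groups, at 31.5% to 81.9% and 37.1% to 62.0%. With unnamed transcripts added, Artn made up 1.98% to 6.57% in SCPs and 19.3% to 30.5% in RSCs, a difference of 20.6 in place of 39.4 percentage points. By named transcripts Nrtn made up 17.6% to 64.8% of the ligand FPKM in SCPs and 7.15% to 11.3% in RSCs. The summed ligand FPKM was 26.7, 26.3 and 21.9 for SCPs against 17.7, 15.1 and 24.5 for RSCs, and the groups overlapped.

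**Figure D3:**
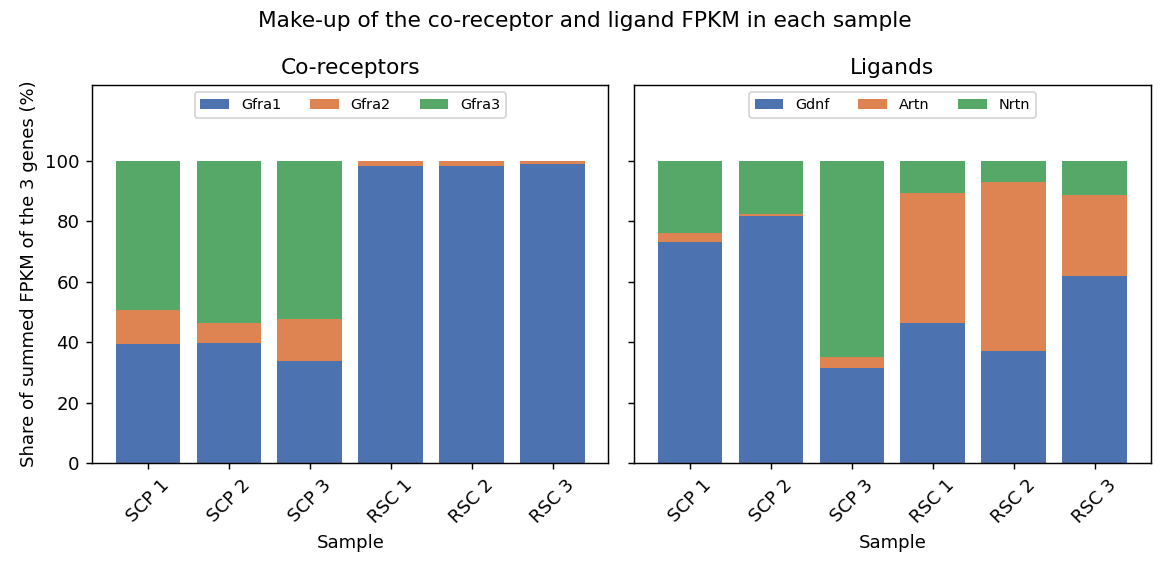
Share in percent of the summed FPKM of the 3 co-receptor genes (left) and of the 3 ligand genes (right) in each sample, as stacked bars. Gfra1 fills over 98% of the co-receptor bar in every RSC sample and 34.0% to 39.8% in the SCP samples, and Artn is the ligand share that widens in all 3 RSC samples.

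Part of the expression at these genes lay in transcripts without a gene name, which Cufflinks assembled from each sample separately. Over all genes, unnamed transcripts held more of the FPKM in SCPs, at 26.1% to 31.9%, than in RSCs, at 18.6% to 23.4%. When unnamed transcripts were added to the named gene of the same Cufflinks locus, Gfra2 became 28.9, 27.0 and 28.1 FPKM in SCPs against 12.9, 13.7 and 11.3 FPKM in the RSC samples. Its log2 fold change was then -1.09 (standard error 0.10, adjusted p = 1.5e-04, limma), and the SCP samples differed by less among themselves than with named transcripts alone. Gfra1 became 103, 111 and 114 FPKM in SCPs against 709, 652 and 791 FPKM in the RSC samples, with a log2 fold change of 2.70. Gdnf became 35.3, 29.8 and 13.6 FPKM in SCPs against 23.3, 18.1 and 24.6 FPKM in the RSC samples, with a log2 fold change of -0.15 (95% interval -0.98 to 0.67). Artn changed in SCP replicate 2 alone, from 0.147 to 2.42 FPKM, and its log2 fold change was 1.92. Gfra3, Nrtn and Ret received none. Nrtn nevertheless passed the threshold in this fit, at the same log2 fold change and an unadjusted p of 0.00647.

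Other genes of the pathway were taken from 5 hand-written lists with 51 genes, of which 49 were listed and 44 tested. RSCs were higher for 10 of these and SCPs for 12, beside 18.1% and 22.4% of all tested genes. The other 22 did not pass, and the lists had a median log2 fold change of -0.31, beside -0.17 for all tested genes. The balance turned with adjusted p, to 8 higher in RSCs and 7 in SCPs, and with median-of-ratios scaling, to 11 and 8. All tested genes shifted the same way. Of those called, 44.6% were higher in RSCs in the fit reported, 47.6% with adjusted p and 56.1% with median-of-ratios scaling.

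Of the remaining ligands and co-receptors, Gdf15, the gene of a stress-induced ligand that signals through GFRAL and RET, was at 0.327, 1.13 and 0 FPKM in SCPs against 14.4, 20.8 and 15.0 FPKM in the RSC samples. Its log2 fold change was 3.63 (standard error 0.33, adjusted p = 4.25e-04, limma), and Gdf15 passed the filter through RSCs alone. Gfral, the gene of its co-receptor, was at 0.175 FPKM in SCP replicate 1 and listed at 0 in the other samples. Pspn, which encodes persephin, was at 0, 7.57 and 6.06 FPKM in SCPs against 0, 3.81 and 1.50 FPKM in the RSC samples and did not pass the test (log2 fold change -0.78, standard error 1.00, adjusted p = 0.558, limma). Gfra4, the gene of the persephin co-receptor, was at most 1.12 FPKM in any sample.

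Among 5 tested alternative receptors and partners of the GFRα proteins, 3 were higher in SCPs and 1 in RSCs. For all tested genes the shares were 22.4% and 18.1%. Gas1, which encodes a membrane protein related to the GFRα family, was at 20.7, 19.6 and 18.3 FPKM in SCPs against 0.689, 0.125 and 0.266 FPKM in the RSC samples (log2 fold change -3.94, standard error 0.22, adjusted p = 7.0e-05, limma). Gas1 passed the filter through SCPs alone. Ncam1, the gene of the adhesion molecule through which GFRα1 can act without RET, had a log2 fold change of -1.42, at 7.27, 8.23 and 10.2 FPKM in SCPs and 4.09, 2.42 and 1.55 FPKM in RSCs. Sdc3, which encodes a heparan sulfate proteoglycan that binds GDNF, had a log2 fold change of -0.64. Fyn, a kinase that acts with NCAM, had a log2 fold change of 0.69 toward RSCs, and of 1.05 for its highest transcript alone. Ncam1 did not pass the threshold without SCP replicate 2, SCP replicate 3 or RSC replicate 2.

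Of 17 tested adaptors and enzymes downstream of RET, 4 were higher in SCPs and 3 in RSCs. These counts are near the 22.4% and 18.1% of all tested genes. Grb10, an imprinted adaptor gene, was at 451, 465 and 405 FPKM in SCPs against 7.58, 7.49 and 8.49 FPKM in the RSC samples (log2 fold change -5.64, standard error 0.09, adjusted p = 4.94e-06, limma). Dok4 was at 6.02, 7.20 and 5.30 FPKM in SCPs and 0, 1.41 and 0 FPKM in RSCs (log2 fold change -2.41). It was -4.66 with a pseudocount of 0.1 and -0.83 with unnamed transcripts added, where Dok4 was no longer over 4-fold. Dok4 passed the filter through SCPs alone. Plcg1, which encodes phospholipase C gamma, had a log2 fold change of -1.89. On the other side, Dok1, Shc2 and Gab1 had log2 fold changes of 1.06, 0.61 and 0.60. Shc2 did not pass without SCP replicate 2, RSC replicate 1 or RSC replicate 3, and Gab1 not without any 1 of the 6 samples.

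The 14 negative regulators held 4 genes higher in SCPs and 1 higher in RSCs, beside 22.4% and 18.1% of all tested genes. Lrig3, which encodes a leucine-rich repeat membrane protein, was at 63.8, 21.0 and 39.5 FPKM in SCPs against 3.60, 3.27 and 1.99 FPKM in the RSC samples (log2 fold change -3.31, standard error 0.42, adjusted p = 0.00145, limma). Ptprf and Cblb, which encode a receptor phosphatase and a ubiquitin ligase, had log2 fold changes of -0.80 and -0.67, and after median-of-ratios scaling neither passed the threshold. Spry2, the gene of a feedback inhibitor of receptor tyrosine kinases, had a log2 fold change of 0.70. Cblb did not pass without any 1 of the 6 samples, Ptprf without any 1 SCP sample or RSC replicate 3, and Spry2 without RSC replicate 1 or 2.

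Of 6 tested transcription factors and targets downstream of RET, 4 were higher in RSCs and 1 in SCPs. The shares of all tested genes were 18.1% and 22.4%. These transcription factors and targets respond to many other receptors too. Cxcr4, the gene of a chemokine receptor, was at 3.87 to 4.36 FPKM in SCPs and 23.3 to 29.8 FPKM in RSCs (log2 fold change 2.45). Egr1 had a log2 fold change of 1.40. Etv5, an ETS factor gene, had a log2 fold change of -0.87 and did not pass after median-of-ratios scaling or without any 1 sample other than RSC replicate 2.

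**Figure D4:**
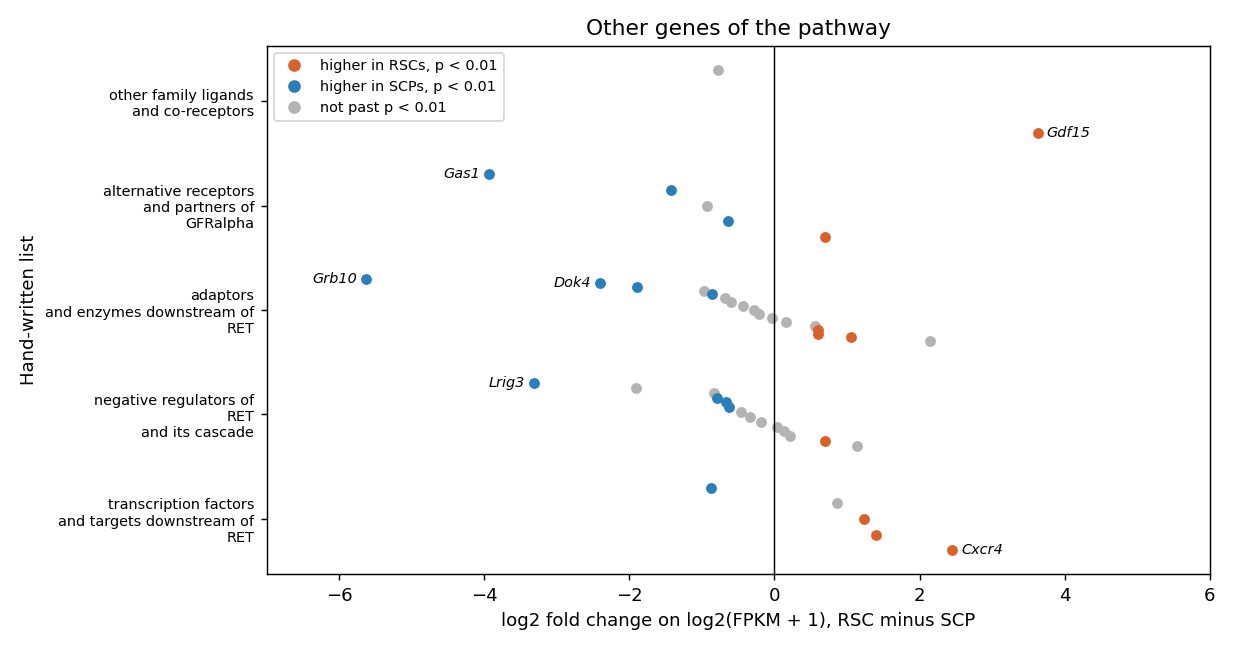
Log2 fold change, RSC minus SCP, of 43 of the tested genes of the 5 hand-written lists, 1 point per gene, coloured by direction where p was under 0.01 and grey otherwise. The genes past p under 0.01 and over 4-fold different are named, from Grb10 at -5.64 to Gdf15 at 3.63, and the points of each list spread to both sides of 0.

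Sums of the markers of other cells did not overlap between the groups, though not every marker differed. Beside the counts below, 22.4% of all tested genes were higher in SCPs and 18.1% in RSCs. Tested markers averaging under 1 FPKM in 1 group passed the filter through the other alone. Of the Schwann lineage markers, Sox10 was at 175 to 181 FPKM in SCPs and 143 to 149 FPKM in RSCs, while Erbb3 was listed at 0 in SCP replicate 1 and RSC replicate 2. The list of 8 summed to 451 to 511 FPKM in SCPs and 1873 to 2395 FPKM in RSCs. Ngfr and S100b held most of the RSC sum, at 803 to 1068 FPKM and 782 to 924 FPKM. In SCPs they were at 173 to 233 FPKM and 3.21 to 19.3 FPKM. The study found S100β protein absent in SCPs alone, so this sum does not measure the amount of Schwann cells. Of 7 tested, 3 were higher in RSCs and 1 in SCPs. Neuron markers, relevant because sensory and autonomic neurons carry Gfra2, Gfra3 and Ret, summed to 31.4 to 55.6 FPKM in SCPs and 18.6 to 24.6 FPKM in RSCs over 10 genes, and 2 of 5 tested were higher in SCPs. Tubb3 held most of that sum, overlapped between the groups and did not pass, at 21.3 to 32.0 FPKM in SCPs and 17.3 to 23.7 FPKM in RSCs. Elavl3, Snap25 and Syt1 were at most 1.18 FPKM in any sample. The 2 neuron markers that passed were Stmn2 and Elavl4, and Elavl4 was listed at 0 in every RSC sample. Isl1 was at 0 there too, but also in SCP replicate 2, and it did not pass. Skeletal muscle markers summed to 50.8 to 185 FPKM in SCPs and 1.68 to 4.06 FPKM in RSCs, with 5 of 6 tested higher in SCPs, and Myod1, Myf5 and Pax7 listed at 0 in every RSC sample. Erythroid markers summed to 17547 to 78426 FPKM in SCPs and 448 to 641 FPKM in RSCs, and 3 of 4 tested were higher in SCPs. Hbe1 and Hbz were listed at 0 in every RSC sample.

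On the RSC side, where Gfra1 and Artn were higher, all 7 tested leukocyte markers were higher too, beside 18.1% of all tested genes. Their list summed to 2054 to 2496 FPKM against 12.8 to 34.0 FPKM in SCPs, where Cd3e was listed at 0. Fibroblast markers summed to 5360 to 8011 FPKM in RSCs and 641 to 1020.1 FPKM in SCPs, with 5 of 6 tested higher. Perineurial markers were higher in 2 of 3 tested and summed to 89.4 to 147 FPKM against 26.7 to 34.7 FPKM. Endothelial and mural markers summed to 53.2 to 56.6 FPKM in RSCs and 27.9 to 47.4 FPKM in SCPs, with 1 of 6 tested higher. That gene was Cspg4, at 18.5 to 21.9 FPKM in RSCs and 2.44 to 5.45 FPKM in SCPs. Pecam1, Kdr and Pdgfrb overlapped between the groups, with means of 6.40, 4.21 and 9.82 FPKM in RSCs against 7.27, 5.02 and 15.3 FPKM in SCPs. Cdh5 and Tek were higher in every RSC sample but did not pass, and Rgs5 was listed at 0 in every RSC sample. The part of these other cells in the differences of the GDNF family genes was not tested.

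Over the 6 samples, many genes followed the members closely, which is a description of a 2-group design and carries no test. The genes with the highest Pearson correlation of log2(FPKM + 1) were Ms4a6b and Ppap2a for Gfra1, Grip1 and Elovl2 for Gfra3, and Krcc1 and Laptm4a for Artn, all with r of 0.999 to 1.00. For Gfra1, 2281 other tested genes had r over 0.9, for Gfra3 2742 and for Artn 2127. The numbers were smaller for Nrtn (388, led by Urod and Papd7), Gfra2 (341, led by Pan2 and Actr6) and Gdnf (77, led by RGD1311747 and Ddx47).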

How the data were processed

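The authors sequenced stranded, paired-end mRNA libraries and deposited, sample by sample, the FPKM of each transcript from Cufflinks, on the rat genome rn6, together with the coverage of each transcript. The submitters' processing notes list FastQC 0.11.2, TopHat2 2.1.0 and Cufflinks 2.2.1. Counts of reads were not used here, so depth is known only as a relative value. From the deposited coverage signal divided by FPKM, taken as a median over transcripts, depth relative to the deepest sample came to 0.88 to 1.00 for SCPs and 0.79 to 0.84 for RSCs.

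Named transcripts were added up by symbol, leaving out 77 per table whose names had become dates. Genes averaging 1 FPKM or more were tested with limma 3.58.1 (R 4.3.3) on log2(FPKM + 1), using a variance trend, no covariates and all 6 samples, with an unadjusted two-sided p under 0.01 as the threshold. The adjusted p is that of Benjamini and Hochberg across the 13003 genes. Shares, and Ret, were tested by exact permutation (scipy 1.17.1). The fit was tested on simulated data. Nothing says whether the preparations came from separate litters or animals, so p-values measure the spread between these samples.

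The members and the lists, written by hand from general knowledge, were chosen with earlier results of these data known. The genes named are the members, every gene of the first pathway list, for the other lists up to 3 per direction that passed and changed most, marker genes, and for each tested member its 2 most correlated genes. Results for a few genes of the lists are not reported here, although the counts and sums of their lists include them. Motifs and sequences shown were chosen after the values were seen. The settings varied were the pseudocount (0.1), the filter (none, or a mean of 5 FPKM), quantile normalization or median-of-ratios scaling, the variance trend, a block for the replicate number, the adjusted p as threshold, the highest transcript per gene, unnamed transcripts added, and each sample left out in turn.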

Additional observations from a re-analysis of the deposited data

How the results depend on the processing

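No member changed direction under any alternative run. Gfra1, Gfra3 and Artn passed the threshold under every alternative in which they were tested, with log2 fold changes of 2.70 to 3.03, -7.98 to -6.03 and 1.92 to 3.68, and Gdnf passed under none (-0.68 to -0.15), the ranges being those with all 6 samples. Nrtn (-1.06 for its highest transcript alone) passed with quantile normalization (-1.67), with the replicate block and with unnamed transcripts added (both -1.60), and Gfra2 with unnamed transcripts added (-1.09). Members higher in SCPs, 1 in the fit reported, therefore numbered 2 with quantile normalization, 2 with the replicate block and 3 with unnamed transcripts added. Members higher in RSCs numbered 1 in place of 2 with a mean of at least 5 FPKM, since Artn was then not tested. Ret was fitted only with no filter (0.35, unadjusted p of 0.137, limma), and under quantile normalization, median-of-ratios scaling, the block and unnamed transcripts it has no value. Leaving out 1 sample gave log2 fold changes of -1.11 to -0.34 for Gdnf, 2.22 to 2.56 for Artn, -1.91 to -1.19 for Nrtn, 2.73 to 2.89 for Gfra1, -1.53 to -0.92 for Gfra2, -6.29 to -6.06 for Gfra3 and 0.22 to 0.50 for Ret. Members higher in SCPs were then 1 to 3, the 3 without SCP replicate 2, when Nrtn and Gfra2 passed at -1.91 and -1.53. Unnamed transcripts moved the difference in the Gfra1 share from 60.7 to 50.6 percentage points and that of Gfra3 from -51.7 to -40.1, and raised the number of all genes higher in SCPs from 2917 to 4789. Pathway list genes higher in RSCs fell from 10 to 6 with the replicate block, and those higher in SCPs from 12 to 7 with the block and to 7 with adjusted p, with 7 to 11 when 1 sample was left out (7 without SCP replicate 2). The cause of these changes was not tested, apart from the filter. Same-numbered SCP and RSC samples did not deviate together (r of 0.044, -0.005 and 0.026 across genes), and not every sample correlated best with its own number, so the numbers were not taken to pair the samples. With the replicate block, 2022 of all genes were higher in RSCs and 2253 in SCPs. Median-of-ratios scaling moved the median of all genes from -0.17 to 0.02, and the share of called genes that were higher in RSCs from 44.6% to 56.1%. Without counts, the sampling error of low members such as Ret cannot be given beyond the intervals of Cufflinks.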

Other observations

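Unnamed transcripts that Cufflinks assembled on the span of Gdnf but outside its locus numbered 4, 3 and 5 in RSC replicates 1, 2 and 3, at 2.50 to 10.4 FPKM each. In SCP replicates 1, 2 and 3 they numbered 1, 1 and 0, at 3.52 and 4.86 FPKM. The strand is not given in the tables, and they were not counted for Gdnf in any summary above.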
